A study of Mus musculus with 12 samples.

Results

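The 10 genes described here belong to the JAK-STAT pathway and to the suppressor of cytokine signaling (SOCS) family: Il6st, Jak2, Stat3, Stat5a, Stat5b, Socs1, Socs2, Socs3, Socs5 and Socs7. They are 10 of the 41091 gene IDs in each deposited count table. They were brought together because Stat5a and Socs3 were higher in 3 hr than in 1 hr control slices, so the control values of these genes chose the set and are given as a description, without a test. All 10 passed the filter on low counts in every comparison.

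RNA-seq libraries were made from acute hippocampal mini-slices, trimmed of the dentate gyrus, that came from C57BL/6 animals of wild type genotype, 2 to 3 months old and, per the study's methods, male. Long-term potentiation (LTP), a lasting strengthening of synapses, was induced chemically: forskolin at 50 uM, which raises cyclic AMP, was given alone over 5 min, and was then joined by 30 mM KCl and 10 mM calcium to a total of 10 min. Control slices received 0.2% DMSO, the vehicle, for 10 min. Slices were frozen 1 hr or 3 hr later, which gave LTP and control groups at either time, 4 groups of 3 libraries, and all slices shared the dissection and 2 hr of recovery beforehand. An animal supplied both the LTP and the control slices of its time point. Animals were assumed to differ between the time points, so time after treatment and animal cannot be told apart in any comparison of 3 hr with 1 hr. The induction was applied to whole slices and the libraries were made from whole slices, in which fewer cells of a type and less RNA per cell cannot be told apart.

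Cytokines of the interleukin-6 family act through receptors that share the signaling chain gp130, the product of Il6st. Janus kinases such as JAK2 are bound to these receptors, phosphorylate them after a ligand binds, and recruit STAT proteins, which are phosphorylated, pair up and enter the nucleus as transcription factors. SOCS genes are among the targets of STAT proteins, and their products bind receptors or kinases and shut the signal down. In brain, the pathway is best known from reactive astrocytes, from microglia and from the response to injury, and it also operates in neurons.

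Library totals lay between 37118382 and 50815001 counts, so that 3 counts, the floor used here, corresponded to between 0.059 and 0.0808 CPM (counts relative to library size, scaled with TMM factors). 1 hr control replicate 2, which the study set aside as an outlier of its clustering, was left out of the tests but is given with the values. It had the highest Stat5a, Stat3, Socs1, Socs2, Socs3 and Socs7 of the 1 hr controls. Defining markers of neurons and of CA pyramidal cells were present in every library, with summed levels of 5946 to 7592 CPM and 372 to 566 CPM. Dentate granule cell markers still summed to between 112 and 213 CPM.

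STAT proteins bind DNA at a short palindrome, written here as TTCNNNGAA, which reads the same on both strands. The letters were searched in RefSeq promoter windows of 300 bases (250 before and 50 after a start, GRCm38.p6). 7 of the 10 members had such a window, with 9 windows between them; Socs2, Socs5 and Socs7 were not among them. 1 of the 9 windows held the motif, that of Socs3, beside 8.298% of all 32851 windows. The Socs3 window is shown because Socs3 is a gene the set was built on, at chr11:117969317-117969616 on the minus strand, 5′ to 3′, with the match in capitals.
Socs3: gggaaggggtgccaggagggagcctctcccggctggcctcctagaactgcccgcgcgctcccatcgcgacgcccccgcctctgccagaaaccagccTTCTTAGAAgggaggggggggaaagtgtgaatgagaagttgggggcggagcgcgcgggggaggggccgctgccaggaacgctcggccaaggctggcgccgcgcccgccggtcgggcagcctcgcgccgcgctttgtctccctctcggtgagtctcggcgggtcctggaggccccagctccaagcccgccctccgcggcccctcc

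The match, TTCTTAGAA at chr11:117969512-117969520, began at position -154 from the RefSeq start. In GENCODE M21 it lies 326 bases upstream of the protein-coding Socs3 transcript and inside an intron of a longer non-coding Socs3 transcript. Of the other pathway genes listed below, 53 had windows, and 9 of their 73 windows held the motif. Cish, which encodes another SOCS-family inhibitor and is widely used as a readout of STAT5, held 2 matches within a few bases of each other, shown with the bases around them at chr9:107296639-107296698 on the plus strand.
Cish: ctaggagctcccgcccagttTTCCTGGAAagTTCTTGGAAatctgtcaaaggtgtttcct

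A match is only a run of letters, and its absence says nothing about the windows' use by STAT proteins.

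**Figure D1:**
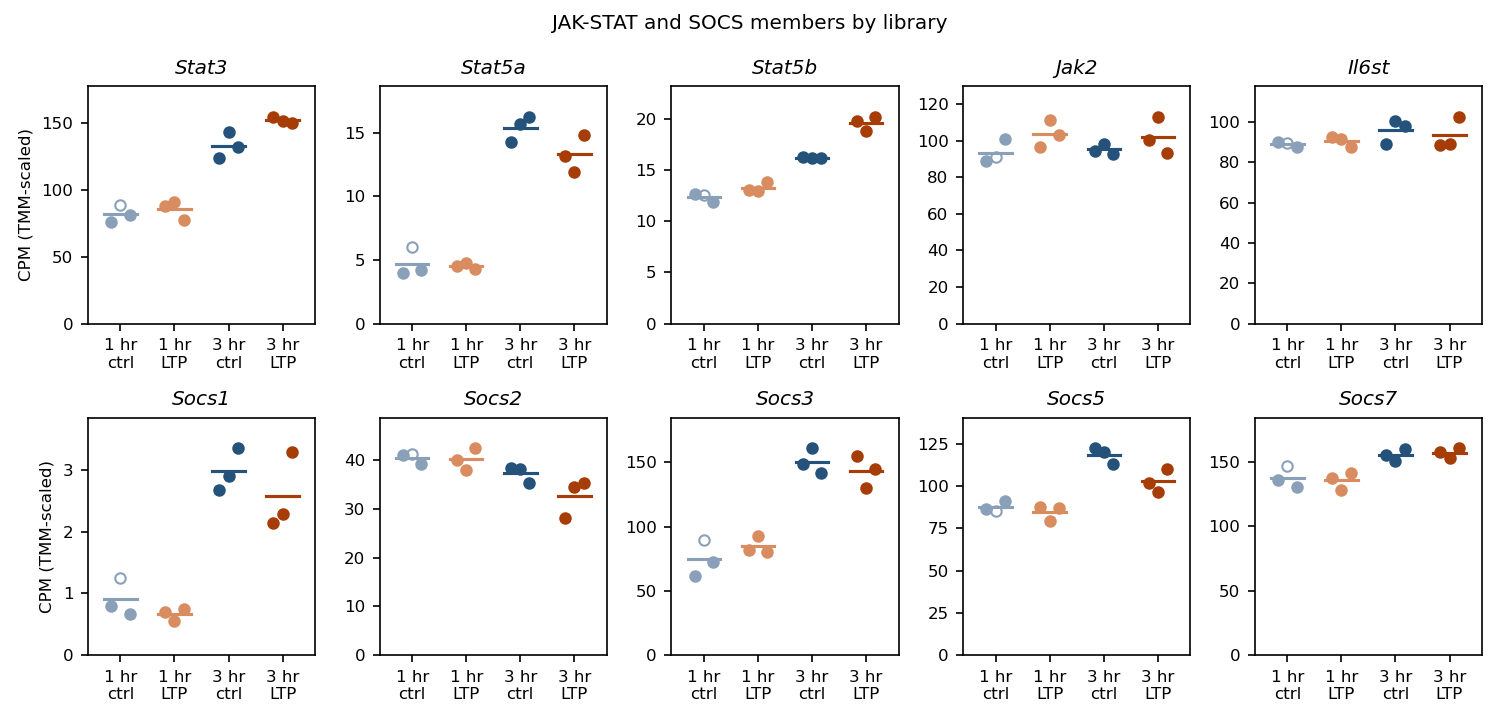
CPM (TMM-scaled, linear axis from 0) of each of the 10 genes in the 12 libraries, 1 point per library in the 4 groups, with a line at the mean of the 3 libraries; the open symbol is 1 hr control replicate 2, included in its group's line. Stat5a, Socs1, Socs3, Stat3, Stat5b, Socs5 and Socs7 sit higher in all 3 hr than in all 1 hr libraries, whereas Jak2 and Il6st overlap between the times.

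The first question was how the members stood at 3 hr against 1 hr in the slices that had received LTP. 6 of the 10 were called higher and 1 was called lower: Socs1, Stat5a, Stat3, Socs3, Stat5b and Socs5 rose, Socs2 fell, and Socs7, Jak2 and Il6st were not called. A call means an adjusted p under 0.1 in edgeR's quasi-likelihood test and a fold change over 1.2. Among all 17582 genes tested, 18.5% were called higher and 15.9% lower, and the median log2 fold change was 0.41 over the members and 0.01 over all genes. These 6 LTP libraries were not used by the choice of the set, although their slices came from the same animals as the controls. Without Stat5a and Socs3, 4 of 8 were higher and 1 lower.

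Il6st (chr13:112464070-112510086, plus strand) encodes gp130. Its levels were 92.7, 91.4 and 87.4 CPM in 1 hr LTP replicates 1, 2 and 3, and 88.6, 89.1 and 102 CPM in the 3 hr LTP replicates. In controls they were 89.9, 89.5 and 87.4 CPM at 1 hr and 89.3, 100.5 and 97.9 CPM at 3 hr. The groups overlapped throughout, and the log2 difference of 0.04 in LTP slices had a 95% interval from -0.14 to 0.21.

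Jak2 (chr19:29251828-29313080, plus strand) encodes a kinase used by gp130 receptors and by the receptors of growth hormone, prolactin and erythropoietin. It had 96.7, 111 and 103 CPM in 1 hr LTP and 100.2, 113 and 93.4 CPM in 3 hr LTP. Control levels were 88.8, 90.9 and 101 CPM at 1 hr and 94.2, 98.3 and 92.9 CPM at 3 hr. Here too all groups overlapped, and the log2 difference with time in LTP slices was -0.03 (95% interval -0.23 to 0.16).

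The STAT genes rose. Stat3 (chr11:100885098-100939540, minus strand), the main STAT downstream of gp130, had 87.7, 91.1 and 77.9 CPM in 1 hr LTP and 155, 152 and 149.9 CPM in 3 hr LTP. Each 3 hr library was above each 1 hr library, with a log2 fold change of 0.82 (SE 0.0759, adjusted p = 0.000348, edgeR quasi-likelihood test). In controls, Stat3 was at 76.3, 88.6 and 81.1 CPM at 1 hr and at 124, 143 and 132 CPM at 3 hr, again without overlap.

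Stat5a (chr11:100859351-100885169, plus strand) had 4.52, 4.72 and 4.30 CPM in 1 hr LTP and 13.2, 11.9 and 14.9 CPM in 3 hr LTP, a rise of 1.55 on the log2 scale (SE 0.118, adjusted p = 0.00018, edgeR quasi-likelihood test). The control values that chose the set were 3.95, 6.00 and 4.17 CPM at 1 hr and 14.2, 15.7 and 16.2 CPM at 3 hr. In both kinds of slice the lowest 3 hr library was above the highest 1 hr library.

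Stat5b (chr11:100780731-100850724, minus strand), the close relative of Stat5a, had 13.1, 13.0 and 13.8 CPM in 1 hr LTP and 19.8, 18.8 and 20.2 CPM in 3 hr LTP. Its log2 fold change was 0.55 (SE 0.0847, adjusted p = 0.00217, edgeR quasi-likelihood test). Controls had 12.7, 12.6 and 11.9 CPM at 1 hr and 16.3, 16.2 and 16.2 CPM at 3 hr.

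Stat5b, Stat5a and Stat3 follow one another on chromosome 11. The last exons of Stat5a and Stat3 overlap on opposite strands over 1.009% and 0.756% of their exonic bases. Stat5a and Stat5b shared 3.44% and 4.79% of their 100-base exonic windows with each other, and how the authors treated reads that align to both is not stated, so their separate values carry that uncertainty. Per kilobase of exon, the level of Stat5a divided by that of Stat5b was between 0.242 and 0.37 in the 6 1 hr libraries, between 0.679 and 0.778 in the 3 hr controls, and between 0.491 and 0.571 in 3 hr LTP. Per kilobase of coding sequence, a length tried after seeing the data, the 3 ranges were 0.301 to 0.46, 0.845 to 0.968 and 0.61 to 0.709. They did not overlap with either length, which only scales the ratio, and they are a description, since the Stat5a controls chose the set.

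The SOCS genes moved unequally. Socs1 (chr16:10782240-10785536, minus strand), an inhibitor of JAK kinases, was the lowest member, with 0.704, 0.554 and 0.752 CPM in 1 hr LTP. It had 2.14, 2.29 and 3.30 CPM in 3 hr LTP, a rise of 1.92 on the log2 scale (SE 0.243, adjusted p = 0.00113, edgeR quasi-likelihood test). All libraries lay above the floor. Controls had 0.801, 1.24 and 0.663 CPM at 1 hr and 2.68, 2.90 and 3.35 CPM at 3 hr, without overlap between the times.

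Socs3 (chr11:117966079-117970047, minus strand), the inhibitor that binds gp130 itself, had 81.8, 92.7 and 80.0 CPM in 1 hr LTP and 155, 130.0 and 145 CPM in 3 hr LTP. The rise was 0.75 on the log2 scale (SE 0.0881, adjusted p = 0.000886, edgeR quasi-likelihood test), and the groups did not overlap. The control values that chose the set were 61.8, 89.4 and 72.3 CPM at 1 hr and 149, 161 and 142 CPM at 3 hr. With offsets for GC content and exonic length, the rise in LTP slices was 0.40 (adjusted p = 0.0133, edgeR quasi-likelihood test).

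Socs5 (chr17:87107679-87137839, plus strand), which restrains signaling of the epidermal growth factor and interleukin-4 receptors, had 87.5, 79.4 and 87.4 CPM in 1 hr LTP and 102, 96.5 and 110.3 CPM in 3 hr LTP. Its log2 fold change of 0.27 (SE 0.0741, adjusted p = 0.0222, edgeR quasi-likelihood test) was just over the 1.2-fold minimum, and the call was lost in 4 of 16 alternatives, among them leaving out 1 hr LTP replicate 2 (0.23) or 3 hr LTP replicate 3 (0.22). Controls had 86.3, 85.5 and 91.4 CPM at 1 hr and 122, 120.4 and 113 CPM at 3 hr.

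Socs2 (chr10:95385362-95417180, minus strand), the regulator of growth hormone signaling, was the only member called lower. It had 40.0, 38.0 and 42.4 CPM in 1 hr LTP and 28.1, 34.6 and 35.3 CPM in 3 hr LTP, a log2 fold change of -0.31 (SE 0.0991, adjusted p = 0.04, edgeR quasi-likelihood test). The call was lost without 3 hr LTP replicate 1, the lowest library (-0.21, adjusted p = 0.166), and without 1 hr LTP replicate 3 (-0.27, adjusted p = 0.123). Controls had 41.0, 41.2 and 39.2 CPM at 1 hr and 38.4, 38.2 and 35.4 CPM at 3 hr. Of its 100-base windows, 2.31% were shared with Gm9847.

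Socs7 (chr11:97362551-97398542, plus strand), which in other systems binds adaptor proteins and STATs, had 137, 128 and 142 CPM in 1 hr LTP and 158, 153 and 160.3 CPM in 3 hr LTP. Although the groups did not overlap and the adjusted p was 0.0425 in edgeR's quasi-likelihood test, the log2 difference of 0.20 was below the fold minimum. It was 0.01 once GC content and exonic length were offset.

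**Figure D2:**
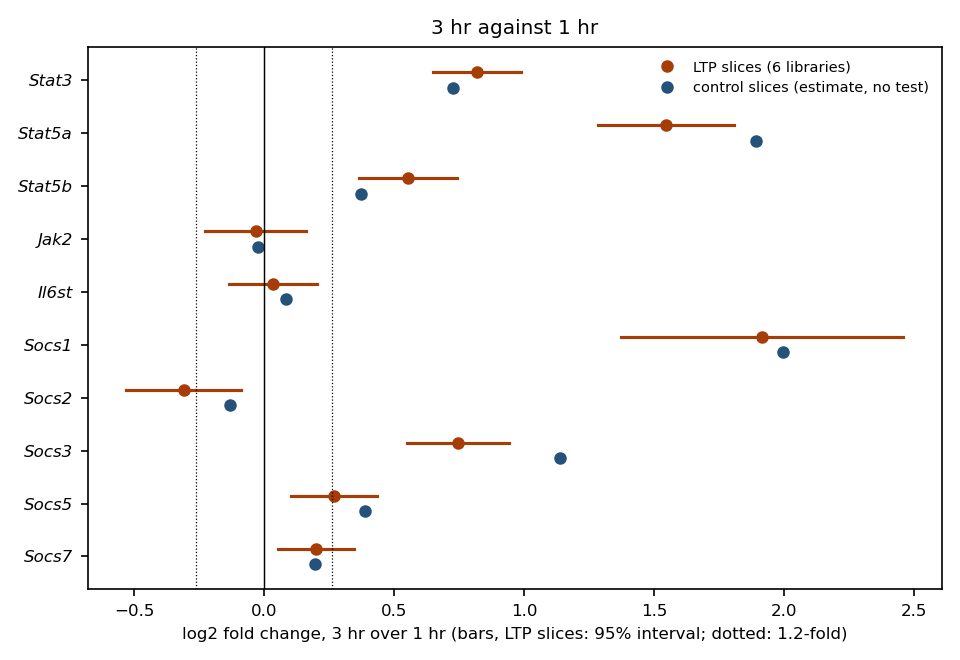
Log2 fold change of each member at 3 hr over 1 hr, in LTP slices (3 against 3 libraries, bars: 95% interval) and in control slices (3 against 2 libraries in the model of the 4 groups, estimate without a test, since controls chose the set). Socs1 and Stat5a lie farthest to the right in both kinds of slice, Jak2 and Il6st lie near 0, and the dotted lines mark 1.2-fold.

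In controls, the same thresholds would be passed by 6 members higher (again Socs1, Stat5a, Socs3, Stat3, Socs5 and Stat5b) and 0 lower, where 16.1% and 16.8% of 18584 genes passed them, and nothing is read from this count because the set was chosen on this contrast. The control log2 differences were 2.00 for Socs1, 1.89 for Stat5a, 1.14 for Socs3, 0.73 for Stat3, 0.39 for Socs5, 0.37 for Stat5b and 0.20 for Socs7. Those of Il6st, Jak2 and Socs2 were 0.08, -0.02 and -0.13.

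Levels of different members were compared per kilobase. The study's text describes expression from reads in coding regions, while the tables list non-coding genes too, so that the length behind the counts is not settled and the order is given for both lengths. Per kilobase of exon, in 1 hr controls the order was Socs3 at 25.8 ± 4.83 CPM per kb (SD, n = 3), Socs7 at 18.9 ± 1.13, Jak2 at 18.6 ± 1.26, Socs5 at 13.7 ± 0.501, Stat3 at 8.61 ± 0.646 and Il6st at 8.01 ± 0.119 CPM per kb. Socs2 at 4.24 ± 0.119, Stat5b at 2.23 ± 0.0794, Stat5a at 0.66 ± 0.158 and Socs1 at 0.31 ± 0.104 CPM per kb came last. Socs7 and Jak2 differed by less than the SD of either, and Stat3 and Il6st by less than the SD of Stat3 but by more than that of Il6st. In 3 hr controls Socs3 led at 52.1 ± 3.31 CPM per kb, Jak2 at 18.9 ± 0.559 and Socs5 at 18.5 ± 0.769 CPM per kb were within 1 SD of each other, and Socs1 was still last at 1.02 ± 0.117 CPM per kb. Per kilobase of coding sequence, Socs3 at 110.4 ± 20.7 and Socs7 at 79.2 ± 4.74 CPM per kb again led the 1 hr controls, but Socs2 moved up beside Socs5 (54.4 ± 1.52 and 54.6 ± 2.00) and Jak2 stood behind Stat3 and Il6st (27.5 ± 1.87 against 35.5 ± 2.67 and 31.8 ± 0.473). Stat5b, Stat5a and Socs1 came last with either length.

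Markers of some other cell types also differed between the times. The summed level of 7 microglia markers lay between 279 and 305 CPM in the 1 hr libraries, between 205 and 235 CPM in 3 hr controls and between 189 and 217 CPM in 3 hr LTP, and 5 of 7 were called lower in LTP slices, beside 15.9% of all genes. In the same comparison, where 18.5% of all genes were called higher, 3 of 5 oligodendrocyte, 1 of 2 oligodendrocyte precursor, 2 of 4 CA pyramidal and 2 of 4 endothelial markers were called higher. The endothelial sum went from between 72.2 and 74.7 CPM at 1 hr to between 74.3 and 92.5 CPM at 3 hr in LTP slices, but from between 83.0 and 91.9 CPM to between 76.5 and 79.3 CPM in controls, where 0 of the 4 passed the thresholds higher and 2 lower. 2 of 7 neuron, 2 of 4 mural cell and 1 of 4 erythrocyte markers were called lower, as was the 1 blood leukocyte marker of 6 that could be tested. 0 of 6 astrocyte, 0 of 3 dentate granule cell and 0 of 3 choroid plexus markers were called, and the astrocyte sum lay between 4411 and 5314 CPM. Of the blood leukocyte markers 1 was at 0 in all libraries, and their sum did not exceed 12.4 CPM. The part of these shifts in the rise of the STAT and SOCS genes was not tested.

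The next comparison was of LTP with control slices at the same time, which the study made to find genes that respond to LTP. Stat5a and Socs3 are described in it without a test, because their low 1 hr and high 3 hr control values chose the set and enter each difference. At 1 hr, edgeR's quasi-likelihood test called 0 of the other 8 members, where it called 0.789% of 17736 genes. 0 had an unadjusted p under 0.05, and DESeq2 and limma-voom called 0 as well.

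The log2 differences of these 8 at 1 hr were 0.14 for Jak2, 0.13 for Stat3 and 0.13 for Stat5b, and lay between -0.11 (Socs1) and 0.04 (Socs7 and Il6st) for the rest. The 95% interval was widest for Socs1, the lowest member, from -0.86 to 0.64, which does not exclude a difference of that size. Its estimate moved to -0.43 with the control set aside included. Socs3 was at 81.8, 92.7 and 80.0 CPM in LTP slices against 61.8 and 72.3 CPM in the 2 controls used, a log2 difference of 0.35. The control set aside had 89.4 CPM, within the LTP range, and with it the difference was 0.19. For Stat5a the difference was 0.16, and it turned to -0.06 with that control.

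At 3 hr, Stat5b was the 1 member called of the 8 tested, higher in LTP slices, where 5.07% of 17508 genes were called higher and 1.53% lower. 3 of the 8 had an unadjusted p under 0.05, and DESeq2 and limma-voom each called 1. Stat5b had 19.8, 18.8 and 20.2 CPM in LTP slices against 16.3, 16.2 and 16.2 CPM in controls, a log2 fold change of 0.29 (SE 0.0693, adjusted p = 0.0583, edgeR quasi-likelihood test). All 3 animals showed it, with log2 ratios of LTP to control of 0.29, 0.22 and 0.32. The size moved little among the alternatives, from 0.26 to 0.32, but the call was lost in 6 of 16: with no filter on low counts (adjusted p = 0.114) and without any one of 5 libraries, 3 hr LTP replicate 1 (adjusted p = 0.208), 3 hr LTP replicate 3 (log2 fold change 0.26, under the fold minimum) and control replicates 1, 2 and 3 (adjusted p = 0.209, 0.259 and 0.153, edgeR quasi-likelihood test).

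Stat3 was higher than control in every 3 hr LTP library, at 155, 152 and 149.9 CPM against 124, 143 and 132 CPM, but with a log2 difference of 0.21 (95% interval 0.06 to 0.36) and an adjusted p of 0.123 in edgeR's quasi-likelihood test it was not called. Socs5 was lower than control in each, at 102, 96.5 and 110.3 CPM against 122, 120.4 and 113 CPM, with a log2 difference of -0.19 (95% interval -0.34 to -0.04, adjusted p = 0.152, edgeR quasi-likelihood test). Stat5a, not tested here, was at 13.2, 11.9 and 14.9 CPM in LTP slices and at 14.2, 15.7 and 16.2 CPM in controls, groups that overlapped, with a log2 difference of -0.20. Within animals its log2 ratios of LTP to control were -0.11, -0.40 and -0.13, lower in all 3.

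For the remaining members tested, the log2 differences at 3 hr were -0.21 for Socs1, -0.18 for Socs2, 0.03 for Socs7, 0.12 for Jak2 and -0.02 for Il6st, none called, and the untested Socs3 was at -0.06. The within-animal log2 ratios of Socs1 were -0.32, -0.33 and -0.02. Only Socs2 among these had groups that did not overlap, 28.1, 34.6 and 35.3 CPM against 38.4, 38.2 and 35.4 CPM, and with offsets for GC content and length it was called lower (log2 fold change -0.27, adjusted p = 0.0984, edgeR quasi-likelihood test). No marker gene of the cell types listed was called between LTP and control slices at either time.

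**Figure D3:**
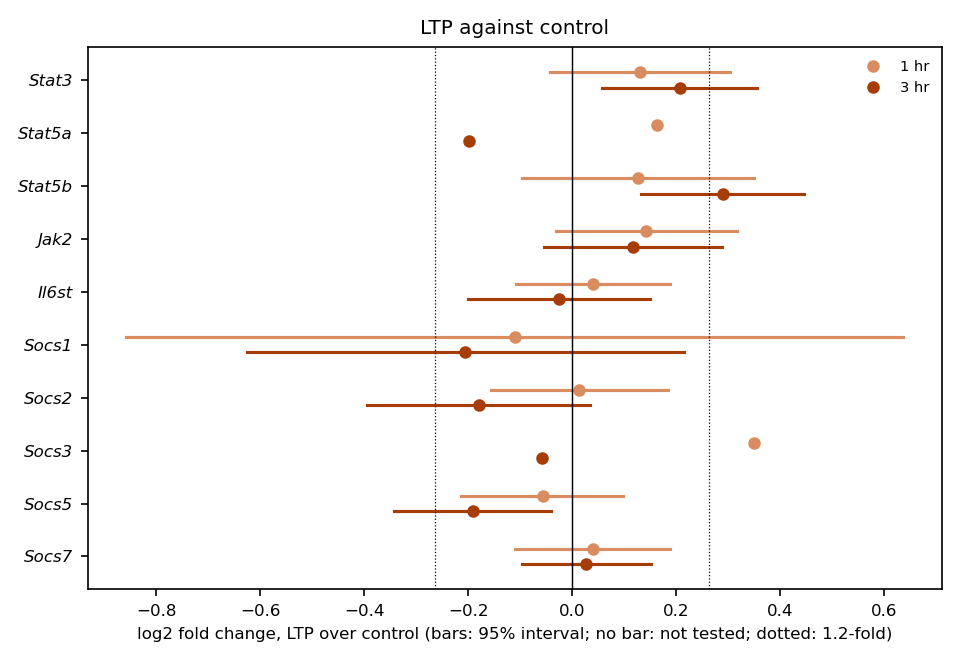
Log2 fold change of LTP over control slices for each member at 1 hr (3 against 2 libraries) and at 3 hr (3 against 3 libraries), with bars for the 95% interval and dotted lines at 1.2-fold; Stat5a and Socs3, whose controls chose the set, have no bar because they were not tested. Of the 8 genes with bars, Stat5b is the only one called, at 3 hr, and the bars of Socs1 are the longest.

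Whether the effect of LTP differed between 1 hr and 3 hr was tested as an interaction in 1 model of the 4 groups. The edgeR quasi-likelihood test called 0 of the 8 members tested, and 0 had an unadjusted p under 0.05. DESeq2 and limma-voom called 0 as well, beside 0.0592% of 18584 genes in edgeR. Estimates lay between -0.19 for Socs2 (95% interval -0.46 to 0.09) and 0.17 for Stat5b (95% interval -0.07 to 0.41). For Stat5a and Socs3, whose controls chose the set, the estimates were -0.35 and -0.40 and were not tested. They shrank to -0.14 and -0.26 with 1 hr control replicate 2 included.

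The other genes of the pathway were examined as lists: 67 genes in 5 lists, of which Osmr, Il4ra and Cish stand on 2. The lists were chosen with earlier results of these data known. Their counts beside the share of all genes are therefore a description and no test of a list. Among ligands of gp130 and related receptors, 7 of 9 were measured well enough to test (not Il27 and Lep). In LTP slices 5 of the 7 rose from 1 hr to 3 hr and 0 fell: Il11, Lif, Clcf1, Il6 and Osm, with log2 fold changes of 2.01, 1.56, 1.31, 1.21 and 0.75. The median was 1.21, against 0.01 over all genes, of which 18.5% were called higher and 15.9% lower, and the count of 5 held in all 16 alternatives.

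Il6, the founding cytokine of the family, was the only gene on this list called at both times after LTP. At 1 hr it had 8.94, 11.6 and 7.85 CPM in LTP slices against 3.00, 4.51 and 4.59 CPM in controls, a log2 fold change of 1.32 (SE 0.201, adjusted p = 0.00363, edgeR quasi-likelihood test). At 3 hr it had 21.4, 23.5 and 21.1 CPM against 9.02, 10.6 and 7.24 CPM (1.31, SE 0.128, adjusted p = 0.0022, edgeR quasi-likelihood test). LTP and control libraries did not overlap at either time.

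At 3 hr, Osm and Il11 were also called higher in LTP slices, making 3 of 7 ligands, beside 5.07% of all genes called higher. At 1 hr Il6 alone was 1 of 7, beside 0.789% called in either direction. Osm, oncostatin M, had 4.11, 5.05 and 5.35 CPM against 3.31, 2.79 and 3.35 CPM in controls (log2 fold change 0.63, adjusted p = 0.0449, edgeR quasi-likelihood test). Il11 had 4.02, 3.23 and 4.04 CPM against 1.95, 2.85 and 1.65 CPM (0.82, adjusted p = 0.0644). Each lost its call in 3 of 16 alternatives. The count was 1 ligand, Il6, without 3 hr control replicate 1 or replicate 3, and 4, with Lif, when 3 hr LTP replicate 2 was left out.

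Among 15 receptors, 0 were called at 1 hr (2 at an unadjusted p under 0.05, 0 with DESeq2 or limma-voom), beside 0.789% of all genes. The count rose to 2 without 1 hr LTP replicate 3, when Prlr (log2 fold change 1.13, adjusted p = 0.00417) and Ghr (0.67, adjusted p = 0.0239) were called higher in LTP slices by edgeR's quasi-likelihood test, and the same 2 were called with no filter beyond 1 count. At 3 hr 1 receptor was called higher and 1 lower, beside 5.07% and 1.53% of all genes. Osmr, the oncostatin M receptor chain that pairs with gp130, was higher in LTP slices, at 96.0, 86.6 and 86.2 CPM against 66.8, 75.0 and 64.2 CPM (log2 fold change 0.40, adjusted p = 0.0299, edgeR quasi-likelihood test). Ifngr1, an interferon gamma receptor chain, was lower (-0.33, adjusted p = 0.0842). Their calls were lost in 3 and 5 of the 16 alternatives, each with a library left out.

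From 1 hr to 3 hr in LTP slices, 4 receptors rose (Il4ra by 0.93, Osmr by 0.74, Epor by 0.62 and Il11ra1 by 0.35 on the log2 scale) and 2 fell (Ghr and Prlr, at -0.60 and -0.82), beside a list median of 0.04 and the 18.5% and 15.9% of all genes called higher and lower. Il11ra1 and Prlr had groups that overlapped, and the calls of Epor, Il11ra1 and Prlr were lost in 4, 5 and 3 of 16 alternatives. The counts ran from 2 (with offsets for GC content and length, or without 1 hr LTP replicate 2 or 3 or 3 hr LTP replicate 1) to 5 higher and from 1 (without 1 hr LTP replicate 1 or 2 or 3 hr LTP replicate 1) to 3 (without 3 hr LTP replicate 2) lower. In control slices 5 of 15 passed the thresholds higher over time (Cntfr, Epor, Il11ra1, Il4ra and Osmr) and 0 lower. Of all genes, 16.1% and 16.8% did so there. Ghr and Prlr are the receptors of growth hormone and prolactin, for which Stat5a and Stat5b are the usual STATs.

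**Figure D4:**
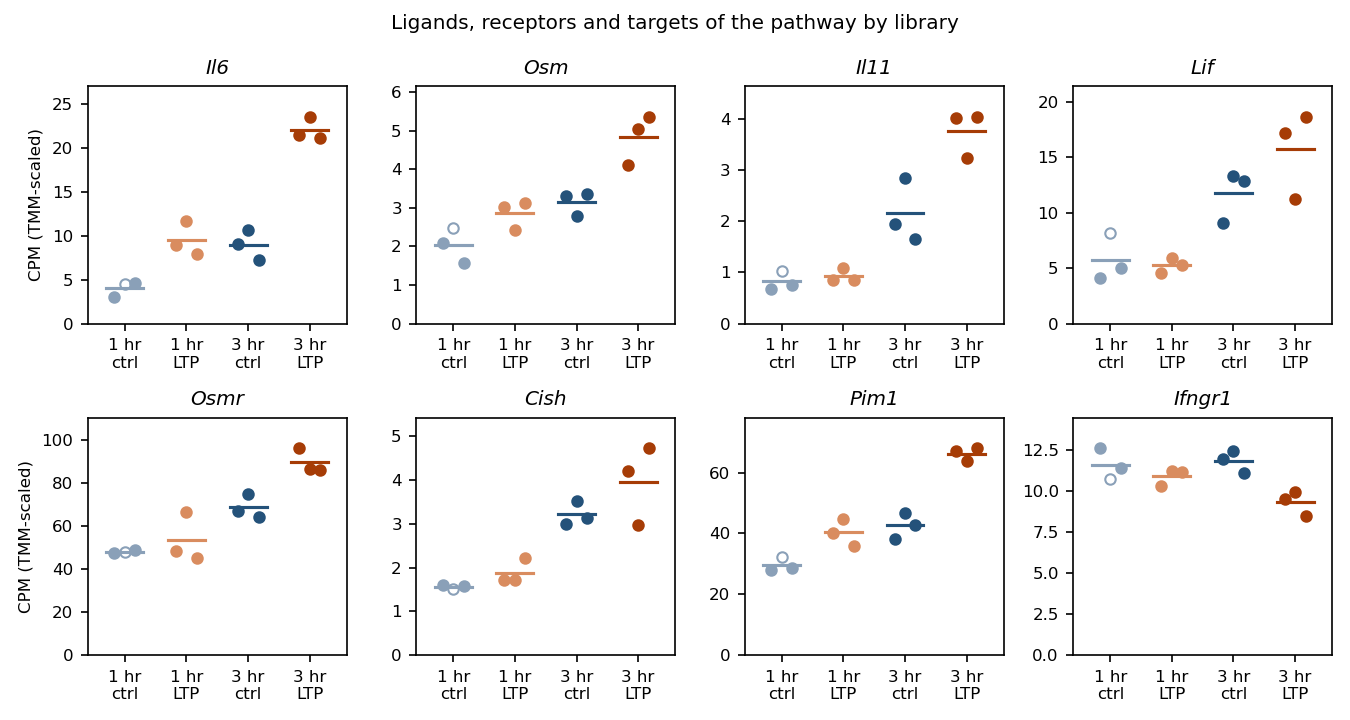
CPM (TMM-scaled, linear axis from 0) in the 12 libraries of 8 pathway genes, picked after their values were seen to show ligands (Il6, Osm, Il11, Lif), receptors (Osmr, Ifngr1) and target genes (Cish, Pim1), with a line at the mean of 3 libraries and 1 hr control replicate 2 as an open symbol. Il6 lies higher in LTP than in control libraries at both times, and Lif and Cish lie higher at 3 hr than at 1 hr.

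Of the other SOCS, STAT and JAK genes, 0 of 9 tested at 1 hr and 0 of 10 at 3 hr were called between LTP and control (0 at an unadjusted p under 0.05 and 0 with DESeq2 or limma-voom at both times), beside 0.789% of all genes at 1 hr and 5.07% higher and 1.53% lower at 3 hr. Without 3 hr LTP replicate 2, 2 of these genes were called higher at 3 hr (Cish at 0.49, adjusted p = 0.0517, and Tyk2 at 0.33, adjusted p = 0.0695), and with offsets for GC content and length Socs6 was called lower (-0.29, adjusted p = 0.0486, edgeR quasi-likelihood test). In LTP slices over time, 4 of 9 rose (Cish by 1.06, Jak3 by 0.66, Stat2 by 0.48 and Tyk2 by 0.39) and 0 fell, beside 18.5% and 15.9% of all genes. With offsets for GC content and length, the rises of Jak3 and Tyk2 were 0.23 and 0.08 and were not called. In control slices 3 of 10 (Cish, Jak3 and Stat2) passed the thresholds higher over time and 0 lower, beside 16.1% and 16.8% of all genes.

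Of 10 negative regulators other than SOCS, 4 rose over time in LTP slices and 2 fell, with a median of 0.01, beside 18.5% and 15.9% of all genes. Pias4 by 0.51, Sh2b3 by 0.50, Ptpn1 by 0.38 and Ptpn11 by 0.29 rose on the log2 scale. These are a ligase for the small protein SUMO, an adaptor and a pair of tyrosine phosphatases. Pias1, another SUMO ligase, and Ptpn6, a phosphatase of blood cells and microglia, had log2 fold changes of -0.29 and -0.64, beside the lower microglia markers given above. With those offsets for GC content and exonic length, 0 of the 4 rises were called, nor was the fall of Pias1 (-0.15, adjusted p = 0.158), and leaving out 3 hr LTP replicate 1 ended the call of Ptpn6 (-0.54, with an adjusted p of 0.108 in edgeR's quasi-likelihood test). Without 3 hr LTP replicate 2 the phosphatase Ptpn2 was also called lower. In control slices the same 4 of 10 passed the thresholds higher over time, and 4 passed them lower (Pias1, Pias2, Ptpn2 and Ptpn6). Of all genes, 16.1% and 16.8% did so there. LTP against control gave 0 calls at 1 hr (0 at an unadjusted p under 0.05) and 0 at 3 hr (2 at an unadjusted p under 0.05), and 0 with DESeq2 or limma-voom at both, beside 0.789% of all genes at 1 hr and 5.07% higher and 1.53% lower at 3 hr.

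The last list held 26 genes often described as STAT3 or STAT5 targets, many of which other pathways also drive. It too was chosen with earlier results of these data known, so its counts are no test of the list. At 1 hr 5 of 26 were higher in LTP slices and 0 lower: Junb, Nfil3, Fosl2, Pim1 and Mcl1, with log2 fold changes of 1.73, 0.75, 0.56, 0.52 and 0.29, beside 0.789% of all genes called. At 3 hr 7 of 26 were higher and 0 lower: Junb at 0.80, Nfil3 at 0.78, Fosl2 at 0.72, Pim1 at 0.65, Bcl6 at 0.47, Osmr at 0.40 and Mcl1 at 0.32, beside 5.07% of all genes higher and 1.53% lower. 1 gene was called lower in each of 3 alternatives: Irf1, an interferon-regulated transcription factor, with the animal as a replicate block (-0.30, adjusted p = 0.072) and without 3 hr control replicate 1, and Bcl2l1, an inhibitor of cell death, when 3 hr LTP replicate 3 was left out (-0.35, with an adjusted p of 0.0599 in edgeR's quasi-likelihood test). The medians over the list were 0.15 and 0.11, against 0.00 over all genes. Junb and Fosl2 are subunits of AP-1, Nfil3 and Bcl6 are transcriptional repressors, Pim1 is a kinase and Mcl1 an inhibitor of cell death. The counts ranged from 2 (without 1 hr control replicate 3) to 5 at 1 hr and from 4 (without 3 hr LTP replicate 1 or control replicate 1 or 3) to 7 at 3 hr among the alternatives. With the replicate block and all 6 libraries, Mcl1 (adjusted p = 0.321) and Pim1 (adjusted p = 0.101, edgeR quasi-likelihood test) were not called at 1 hr. Mcl1 lost its call in 9 of 16 alternatives at 1 hr and in 6 at 3 hr, Pim1 in 4 at 1 hr and Bcl6 in 4 at 3 hr.

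In LTP slices from 1 hr to 3 hr, 13 of the 26 rose and 1 fell, with a median log2 fold change of 0.34 against 0.01 over all genes, of which 18.5% were called higher and 15.9% lower. In control slices 16 of the 26 passed the thresholds higher over time, among them these 13 and Junb, and 2 lower (Hif1a and Igf1). The control median was 0.51, and 16.1% of all genes passed higher and 16.8% lower there. Ccl2, a chemokine, rose by 1.76, Timp1, an inhibitor of matrix proteases, by 1.42, and Bcl3, a partner of NF-kB, by 1.30. Cish at 1.06 was followed by Il4ra at 0.93, Cebpd at 0.86, Fosl2 at 0.80, Cebpb at 0.78, Osmr at 0.74, Pim1 at 0.71, Irf1 at 0.60, Icam1 at 0.56 and Nfil3 at 0.37. Cebpb, a partner of Cebpd, was at 0.26 and not called with offsets for GC content and length. Junb fell (-0.37, or -0.80 with those offsets), from between 300.3 and 412 CPM at 1 hr to between 274 and 317 CPM at 3 hr, groups that overlapped, and the call was lost without 1 hr LTP replicate 1 or 3 or 3 hr LTP replicate 1. In control replicates 1, 2 and 3 Junb was at 110, 164 and 116 CPM at 1 hr and at 144, 179 and 180 CPM at 3 hr.

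**Figure D5:**
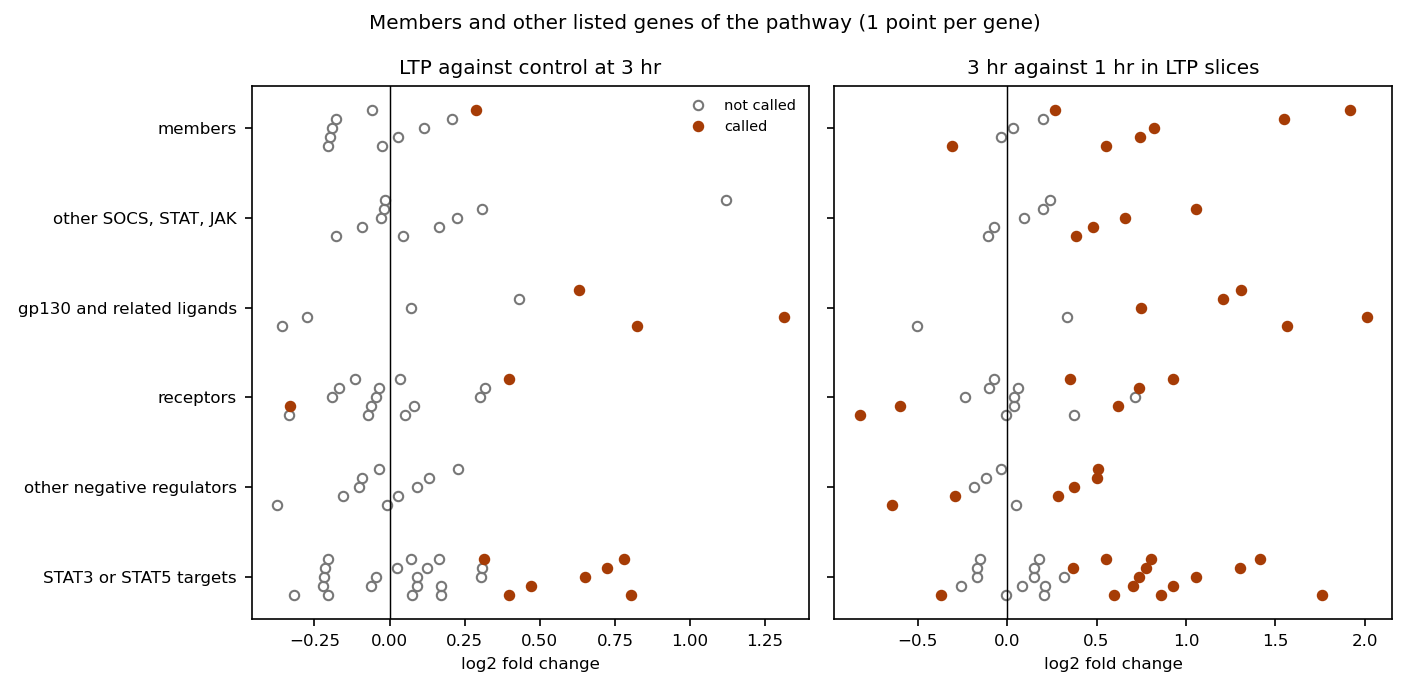
Log2 fold changes of the 10 members and of the genes in the 5 lists that were tested, 1 point per gene and list, for LTP against control at 3 hr (left) and for 3 hr against 1 hr in LTP slices (right), with filled points for called genes; the axes differ between panels and vertical offsets only separate points. In the right panel 5 of 7 ligands and 13 of 26 STAT target genes are called to the right of 0, and in the left panel Stat5b is the member that is. Stat5a and Socs3 are drawn there as open points, and nothing is read from this because their controls chose the set.

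Genes whose pattern over the 12 libraries was most like that of Stat5a and Socs3 were ranked by Pearson's r among 14185 genes, as a description, since these libraries share the split by time. For Stat5a they were Slc22a5, a carnitine transporter (r = 0.989), Stx11 (0.988), Pi4k2a (0.986), Aspg (0.985) and Gpr146 (0.985). For Socs3 they were Ddx17, an RNA helicase (0.984), Cry1, a component of the circadian clock (0.978), Ptx3, a soluble pentraxin (0.976), Hk2, a hexokinase (0.973) and Sdc4, a syndecan (0.971). 178 genes had an r over 0.95 with Stat5a and 29 with Socs3, and the r between Stat5a and Socs3 was 0.969. Without 1 hr control replicate 2, 3 of the 5 genes stayed among the first 5 for each.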

How the data were processed

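The authors prepared stranded, ribosome-depleted total RNA libraries, aligned them to GRCm38/mm10 with STAR and obtained gene counts with Bioconductor packages in R. The deposited tables, 1 per time point, hold raw counts for 41091 Ensembl gene IDs in 12 libraries (3 per group). Use of strand and treatment of multiply aligned reads are not given in the sources used here. 40217 IDs matched GENCODE M21. Values were scaled with TMM and tested in edgeR 4.0.16 (R 4.3.3), by quasi-likelihood F tests, after filterByExpr, with Benjamini-Hochberg adjustment over all genes. Calls needed an adjusted p under 0.1 and, except for the interaction, a fold change over 1.2, the study's thresholds. 1 hr control replicate 2 was left out of tests. Stat5a and Socs3 are printed without a test wherever their controls enter. The interaction and the control description used 1 model of 4 groups (11 libraries). Likeness used log2(CPM + 0.1) where the mean was 1 CPM or more. Fits were tested on simulated data.

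The members, the lists and the tests were chosen with earlier results of these data known. Named were all members, each listed gene called in a tested comparison (1 item is not reported here), and the 5 genes most like Stat5a and Socs3.

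Replicates of a group were separate animals, and their counts differed by 9.49 to 85.6 chi-square per degree of freedom (genes with at least 20 counts), so none was a duplicate. Per the study's methods, LTP and control libraries with the same number came from 1 animal. The deviations from the group means of paired libraries correlated at -0.01, -0.16 and 0.075 at 1 hr and at 0.039, -0.03 and 0.218 at 3 hr. Alternatives were DESeq2 1.42.0, limma-voom (limma 3.58.1), 3 other scalings, 2 other filters (1 count; 10 counts in every library), offsets for GC content and exonic length (splines with 5 degrees of freedom), a replicate block, other sets of libraries, and leaving out each library.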

Additional observations from a re-analysis of the deposited data

How the results depend on the processing

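In LTP slices over time, Socs1, Socs3, Stat3, Stat5a and Stat5b kept their direction and their call in all 16 alternatives, and the members called numbered 6 or 7. The log2 fold change of Stat5a ran from 1.19 (offsets for GC content and length) to 1.62 and that of Socs3 from 0.40 (the same offsets) to 0.82. The interaction gave 0 members in all 21. At 1 hr the members past the thresholds went from 0 to 1 with DESeq2 (1), with no filter beyond 1 count (1) and without 1 hr LTP replicate 3, and leaving out 1 library gave 0 to 1. That gene was Socs3, whose control values chose the set, so this is a description and no test. At 3 hr they went from 1 to 0 with no filter beyond 1 count and to 2 with offsets for GC content and length, and leaving out 1 library gave 0 to 1. The cause of these shifts was not tested. With the replicate number as a block, which is the animal within a time point, the members called were 0 at 1 hr, 1 at 3 hr (Stat5b, adjusted p = 0.0521, edgeR quasi-likelihood test), 7 in LTP slices over time and 0 for the interaction. At 1 hr and for the interaction these fits also included 1 hr control replicate 2. Among the members the block changed no call. Among the listed genes Mcl1 and Pim1 lost their 1 hr calls, Irf1 gained a lower call at 3 hr, and Cntfr, a receptor chain, gained a higher call in LTP slices over time (adjusted p = 0.0604, edgeR quasi-likelihood test). The numbers are not known to pair animals across time, so in LTP slices over time the block does not account for the animal. No called value changed sign. Socs1, the lowest member, had the widest intervals between LTP and control slices, and the part of depth in this was not tested.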
